A study of Bos taurus with 11 samples.

Results

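MHC class I molecules display peptides on the surface of nearly all nucleated cells. A heavy chain, in cattle a member of the bovine leukocyte antigen (BoLA) family, pairs with the light chain beta-2 microglobulin (B2M), and peptides cut by the proteasome reach the pair through a transporter and a loading complex. The genes followed here are 10 parts of this route: the heavy chain (named BOLA on the array), B2M, the transporter chains TAP1 and TAP2, tapasin (TAPBP), the immunoproteasome subunits PSMB8, PSMB9 and PSMB10, and the proteasome activator subunits PSME1 and PSME2. In blood cells, interferon gamma raises many of these genes together. They were chosen by gene name: 33 of the array's 43653 probes carry 1 of the 10 names, with 11 probes for BOLA, 5 for B2M, 4 for PSMB9, 3 each for TAP1 and PSMB8, 2 each for PSME1 and PSME2, and 1 each for TAP2, TAPBP and PSMB10.

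The study set peripheral blood mononuclear cells (PBMCs, the lymphocytes and monocytes of blood) of Ladakhi cattle, which live at high altitude, beside those of Sahiwal cattle from a low, arid to semi-arid region. It holds 5 female Ladakhi and 6 female Sahiwal animals, the Sahiwal cells being described as basal, with no treatment or age given, and 1 array of 1 colour (Cy3) per animal. The labels number the samples without saying more about the animals. The p-values set the breed difference against the spread between these samples within a breed, which includes differences between arrays and slides. Every Ladakhi slide was read on one scanner type and every Sahiwal slide on another. Breed, altitude, region, slide, scanner and the version of the extraction software therefore cannot be told apart.

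Between 4243 and 6608 of 43803 spots were well above background on the Ladakhi arrays, against 17517 to 20574 on the Sahiwal arrays. A saturated spot gives only a lower bound of its signal. There were 0 such spots on any Ladakhi array and 71 to 228 per Sahiwal array. A level below is log2 of the processed signal minus a reference value of the array, the 75th percentile of the 2705 probes that no array missed. The lowest level well above background was between -4.45 and -3.03 on the Ladakhi arrays, and on average -8.24 on the Sahiwal arrays. Tests with limma took in the 17866 probes detected in 4 or more animals of one breed. The 4048 probes detected in 4 or more animals of each breed are called measured. Of the marker genes for cell types, 5 of 6 for T cells, 2 of 5 for B cells, 1 of 4 for NK cells and 3 of 5 for monocytes were detected on 4 or more Ladakhi arrays, and 6, 4, 2 and 4 of them on 4 or more Sahiwal arrays. Of 5 granulocyte, 3 platelet and 4 red cell genes, 0, 1 and 1 were so detected in Ladakhi and 2, 3 and 3 in Sahiwal. Far fewer spots of any kind were detected on the Ladakhi arrays, so these counts do not compare the cell types of the breeds. In bulk samples such as these, weaker detection by the array, fewer cells of a type and less RNA per cell cannot be told apart.

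The sequences under the BOLA probes are needed to read their values, because the heavy chain genes are near copies of each other and a probe may take up RNA of several of them. Of the 11 BOLA probes, 3 share a run of 16 bases, in capitals here, from the start of the cytoplasmic tail. The run was in 4 of all 43653 probes. The other one is a probe for JSP.1, a class I heavy chain gene that is not among the 10 names. Sequences are 5′ to 3′, as in the array files.
BOLA A_73_P039316: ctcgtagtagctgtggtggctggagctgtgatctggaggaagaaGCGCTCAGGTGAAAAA
BOLA A_73_P107911: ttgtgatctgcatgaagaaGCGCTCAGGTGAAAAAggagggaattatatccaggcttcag
BOLA A_73_P109228: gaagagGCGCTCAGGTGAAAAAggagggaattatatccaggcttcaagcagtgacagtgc
JSP.1 A_73_P047531: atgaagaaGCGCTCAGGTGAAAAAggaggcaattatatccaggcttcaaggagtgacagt

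Another 3 BOLA probes cover the last stretch of the tail, up to or near the stop codon, and share a run of 31 bases held by no other probe of the array. Capitals in the first mark each base at which either of the others differs from it, and capitals in the others mark the bases that differ from the first. Counted from the 5′ end of A_73_P041976, A_73_P108026 differs from it by A36G and T57G over all 60 bases. A_73_P062321 differs from it by G4T, A36G, G55A and T56G over the 57 bases they share.
BOLA A_73_P041976: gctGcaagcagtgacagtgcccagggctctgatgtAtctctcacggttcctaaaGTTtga
BOLA A_73_P108026: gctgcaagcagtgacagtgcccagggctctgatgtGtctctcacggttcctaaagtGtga
BOLA A_73_P062321: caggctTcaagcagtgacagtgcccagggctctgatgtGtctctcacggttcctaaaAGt

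On the 3′ side of A_73_P041976, which the files place at chr23:28656079-28656442 (build HGSC Btau_3.1), lie A_73_115812, at chr23:28655800-28655859, and A_73_P098582, at chr23:28655816-28655875. The files place the other 2 probes of the tail end elsewhere on chr23. The overlapping pair shares 44 bases with 1 difference, G7A counted from the 5′ end of A_73_115812. The stretches below are positions 1 to 30 of the first and 17 to 46 of the second, with the differing base in capitals.
BOLA A_73_115812: tgggccGtctccatcgctgtctttgcttca
BOLA A_73_P098582: tgggccAtctccatcgctgtctttgcttca

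Of the 33 probes, 30 passed the filter on dim probes, and 20 of these, from 7 of the 10 genes, were measured in both breeds. The tested probes called at an adjusted p under 0.05 (limma, Benjamini-Hochberg over all 17866 probes) numbered 6 lower in Ladakhi and 0 higher. Over all tested probes, 41.8% were called, 24.5% higher and 17.3% lower, so the share of the class I probes called lower was near that background. Of the 20 measured probes, 2 were lower and 0 higher, where 32.7% of all measured probes were called, 18.2% higher and 14.6% lower. The ranges of the breeds did not overlap for 3 of the 30 tested probes, against 22.8% of all tested probes, and for 0 of the 20 measured ones, against 21.6%. The median difference, Ladakhi minus Sahiwal on the log2 scale, was -0.20 over the 20 measured class I probes and -0.02 over all measured probes. The direction of calls moved with the scaling: under quantile normalization 1 class I probe was higher and 7 were lower, and over all tested probes 1223 were higher and 7230 lower, where the percentile scaling gave 4378 and 3098. Cyclic loess gave 0 and 8 for the class I probes and 1109 and 4064 over all tested probes.

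The 6 calls were in BOLA (4 probes), TAPBP and PSMB10. In 4 of them, the probe was well above background on fewer than 4 Ladakhi arrays, so that the Ladakhi mean includes background signals. B2M, TAP1, TAP2, PSMB8, PSMB9, PSME1 and PSME2 had no called probe. With the tested probes of a gene averaged, the same 3 genes were called: BOLA differed by -0.89 (SE 0.26, adjusted p = 0.0161), while TAPBP and PSMB10 rest on 1 probe each. The BOLA mean takes in A_73_P107911 (-3.82) and A_73_P032576 (-2.39), whose Ladakhi means include background signals. Differences of the 8 measured BOLA probes ran from -1.43 to 0.64.

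**Figure D1:**
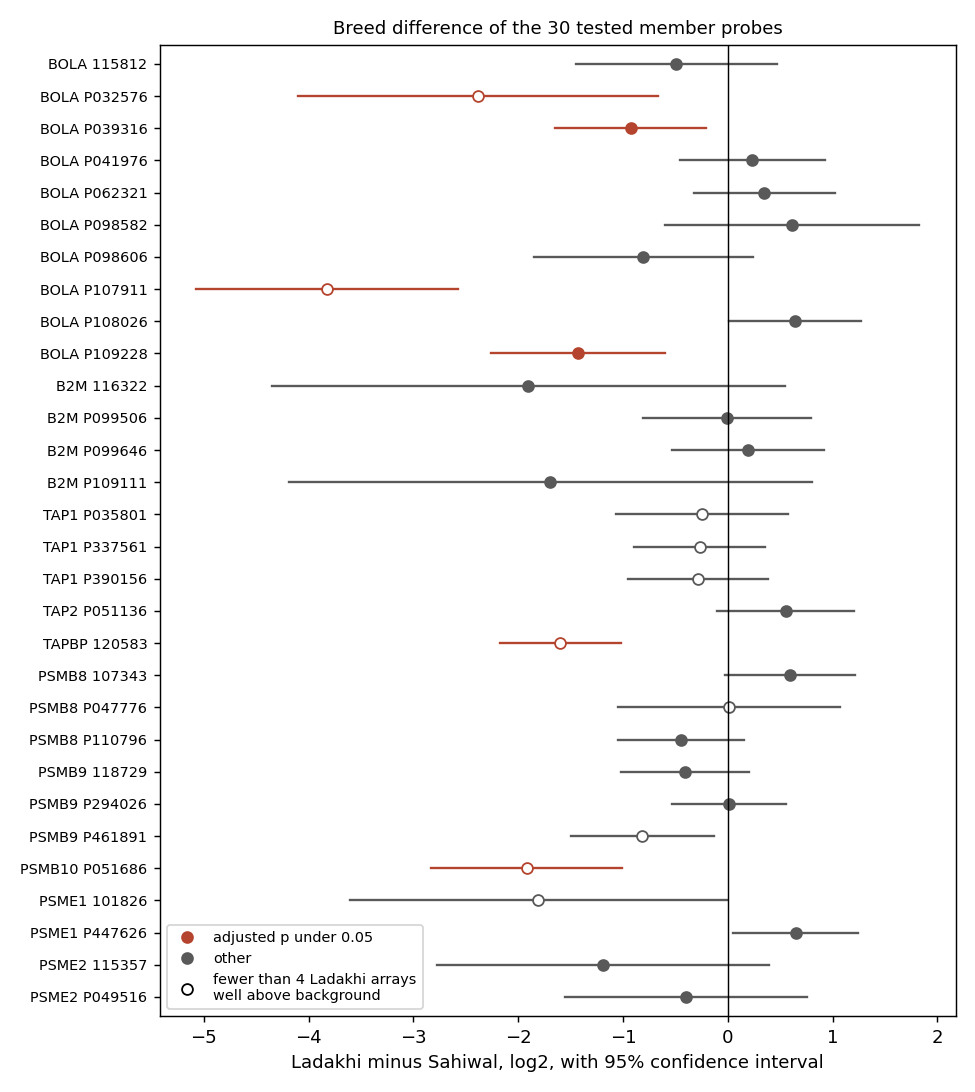
Breed difference of each of the 30 tested probes, Ladakhi minus Sahiwal in log2 units, with its 95% confidence interval from the limma fit. Red marks the 6 called probes, and open points mark probes well above background on fewer than 4 Ladakhi arrays. All 6 called probes lie left of 0, and 2 of them are filled.

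Each of the 3 BOLA probes that hold the shared 16 bases was lower in Ladakhi. Of these, A_73_P107911 and A_73_P109228 overlap over 47 bases with 2 mismatches, so they are not independent of each other. On A_73_P109228, the Ladakhi animals 1 to 5 had levels of -2.61, -1.14, -2.66, -2.09 and -1.87, and the Sahiwal animals ran from -1.65 over a median of -0.60 to 0.14. Ladakhi animal 2 lay inside the Sahiwal range and the other 4 lay below it. Ladakhi averaged -2.07 ± 0.62 (SD, n = 5) and Sahiwal -0.65 ± 0.71 (SD, n = 6), so that Ladakhi was 2.69-fold lower, with a log2 difference of -1.43 (SE 0.39) and an adjusted p of 0.01. It was called without any single animal, with adjusted p between 0.0057 and 0.0283.

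On A_73_P107911, only Ladakhi animals 3 and 5 were well above background, at -3.22 and -3.10, while the 6 Sahiwal animals ran from -1.70 over -1.02 to 0.79. No Ladakhi animal reached the Sahiwal range. With the 3 background signals kept, the difference was -3.82 (SE 0.58, adjusted p = 0.00035). With them left out, it was -2.38 (adjusted p = 0.0091), from the 2 Ladakhi animals that remained.

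On A_73_P039316, the Ladakhi levels were 1.65, 1.41, 2.10, 0.15 and 1.78, and the Sahiwal levels ran from 2.01 over 2.37 to 2.62, with 3 of the 6 saturated. Ladakhi animal 4 was the lowest, and animal 3 lay inside the Sahiwal range. The difference was -0.93 (SE 0.34, adjusted p = 0.0397). The call was lost on leaving out any one of 8 of the 11 animals, with adjusted p from 0.0209 to 0.0897, and without Ladakhi animal 4 the difference was -0.61 (adjusted p = 0.0897). It was also lost with the percentile taken over all probes (adjusted p = 0.0508), with the authors' deposited table (adjusted p = 0.0521) and with a replicate block (adjusted p = 0.0755).

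The JSP.1 probe with the same 16 bases was not called. It overlaps A_73_P109228 over 58 bases with 3 mismatches, and A_73_P107911 over 49 bases with 2. Its mean level was -1.09 ± 1.06 (SD, n = 5) in Ladakhi. In Sahiwal it was -1.52 ± 0.73 (SD, n = 6), and the difference of 0.43 had an SE of 0.48 (adjusted p = 0.488). A probe for BOLA-N, a relative of the heavy chain, A_73_P035281, overlaps A_73_P109228 over 58 bases with 5 mismatches. Its difference was 1.44 (SE 1.31, adjusted p = 0.4), not called. It was well above background on 5 of the 6 Sahiwal arrays, and its Sahiwal SD was 3.58. The sign of the difference is thus not settled for either of these near-alike probes. The gap between them and A_73_P109228 was not tested.

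None of the 3 probes for the end of the tail was called, and the difference between these and the 3 probes above was not tested. Only A_73_P041976 carried no saturation mark, while the other 2 were saturated on 3 of the 6 Sahiwal arrays, which bounds their Sahiwal means from below. In Sahiwal animal 1, the processed signal of A_73_P041976 was 67667, above the 66419 of A_73_P062321, which was marked as saturated there. On A_73_P041976, the Ladakhi levels were 1.67, 1.71, 1.52, 2.85 and 2.24, and the Sahiwal levels ran from 1.14 over 1.79 to 2.29. The ranges overlapped widely, and the difference was 0.24 (95% confidence interval -0.46 to 0.93, adjusted p = 0.582). On A_73_P108026, the Ladakhi levels were 3.07, 3.09, 3.34, 2.15 and 3.03 and the Sahiwal levels ran from 1.85 over 2.35 to 2.71. The measured means differed by 0.64 (adjusted p = 0.0928). With 3 saturated Sahiwal spots, neither the size nor the direction of the difference is settled.

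Ladakhi animal 4 was thus the highest of its breed on A_73_P041976 and the lowest on A_73_P108026, the pair that differs by A36G and T57G. On A_73_P062321, it was again the highest, at 3.42 against 2.33 to 2.64 in animals 1, 2 and 5, animal 3 being missing there because of an outlier mark. The measured means of A_73_P062321 differed by 0.35 (adjusted p = 0.389), again with 3 saturated Sahiwal spots. Under quantile normalization it was -0.04 and under normexp background correction -0.09, so this probe gave no settled direction, and A_73_P041976 was at -0.07 under normexp.

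The overlapping pair was saturated in all 6 Sahiwal animals, so their Sahiwal levels are lower bounds. On A_73_115812, Ladakhi animals 2 to 5 had 1.57, 3.66, 1.37 and 1.64, animal 1 being missing because of an outlier mark, and the Sahiwal mean was 2.55 ± 0.47 (SD, n = 6). The measured means differed by -0.49 (interval -1.45 to 0.47, adjusted p = 0.398), with Sahiwal bounded from below. With outlier marks kept, which brings animal 1 back, the difference was -0.33 (adjusted p = 0.543). Without Ladakhi animal 3 it was -1.02 (adjusted p = 0.0294). On A_73_P098582, the Ladakhi levels were 3.68, 0.67, 3.31, 4.30 and 4.61 and the Sahiwal mean was 2.70 ± 0.45 (SD, n = 6). Since Sahiwal is only bounded from below there, no fold or direction is given. Within the Ladakhi breed the highest animal was 3 on A_73_115812 and 5 on A_73_P098582, although the probes share 43 of 44 overlapping bases.

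Heavy chain probes for the peptide-binding domains were dimmer in Ladakhi on some arrays. A_73_P032576, from the alpha-2 domain, spans chr23:27749511-27749823 in the file coordinates, more than its 60 bases, so its match is split there. Why it is split was not tested. It is shown because it was called: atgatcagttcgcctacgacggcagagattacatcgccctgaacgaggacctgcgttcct. The Ladakhi levels were -0.50, -1.27, -4.52, -5.73 and -1.25, with animals 3 and 4 not well above background, and the Sahiwal levels ran from -0.96 over -0.42 to 0.75. The difference was -2.39 (SE 0.80, adjusted p = 0.0281), and -0.74 (adjusted p = 0.15) with the 2 background signals left out. The call was also lost without Ladakhi animal 3, Ladakhi animal 4 or Sahiwal animal 1 (adjusted p = 0.0746, 0.0654 and 0.0561) and under quantile normalization (adjusted p = 0.0785). A_73_P098606, from the alpha-1 domain, was at -3.76, -1.73, -1.78, -0.33 and -1.01 in Ladakhi, with animal 1 not well above background, and at -1.46 over -0.99 to -0.38 in Sahiwal. The difference was -0.80 (SE 0.49, adjusted p = 0.202). The last BOLA probe, A_73_110205, was detected on 0 Ladakhi and 2 Sahiwal arrays and was not tested.

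**Figure D2:**
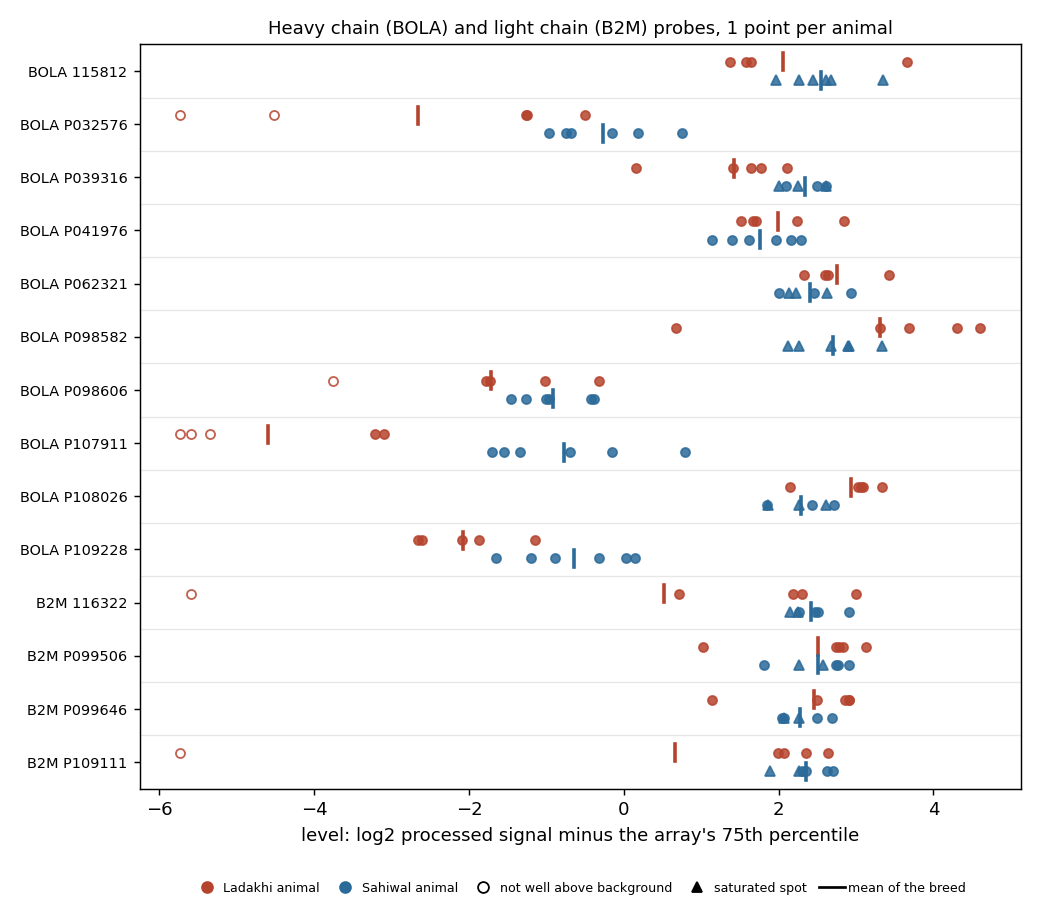
Levels (log2 processed signal minus the array's 75th percentile) of the 14 tested BOLA and B2M probes, with 1 point per animal, red for Ladakhi and blue for Sahiwal, and bars at the breed means. Open points are not well above background and triangles are saturated spots. On A_73_P107911 the breeds do not overlap, and on 2 B2M probes a single open Ladakhi point lies far from the other 4.

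The light chain, B2M, was not called on any of its 4 tested probes, all at chr10:106114274-106114835 in the file coordinates and saturated on 2 Sahiwal arrays. Their Sahiwal means are thus lower bounds, and the size of each B2M difference below is not settled. On A_73_P099506, the Ladakhi levels were 2.78, 3.13, 2.83, 1.03 and 2.74 and the Sahiwal levels ran from 1.81 over 2.66 to 2.90. The difference was -0.01 (interval -0.81 to 0.79, adjusted p = 0.99). On A_73_P099646, the Ladakhi levels were 1.14, 2.91, 2.49, 2.91 and 2.86 and the Sahiwal levels 2.04 over 2.17 to 2.69, a difference of 0.19 (interval -0.54 to 0.92, adjusted p = 0.672). In both, 4 Ladakhi animals lay above the Sahiwal median, itself a lower bound, and 1 lay below every Sahiwal animal.

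The other 2 B2M probes each had 1 Ladakhi spot at background beside bright ones. On A_73_P109111, animal 4 had a processed signal of 14.9, not well above background, while the other Ladakhi animals had 4297 to 7432. On A_73_116322, animal 1 had 21.2 and the others 1960 to 8318. The breed differences of -1.69 (adjusted p = 0.259) and -1.90 (adjusted p = 0.196) came to -0.09 (adjusted p = 0.809) without animal 4 and -0.37 (adjusted p = 0.478) without animal 1.

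Ordered along the transcript, the low animal was 4 on the first 2 B2M probes and 1 on the last 2. Animal 4 was the highest Ladakhi animal on A_73_116322, at 3.00, and animal 1 had 2.35 on A_73_P109111. Neither animal was low on all 4 probes. Of the 20 measured class I probes, 5 had a single Ladakhi spot not well above background (25%), against 33.1% of all measured probes.

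**Figure D3:**
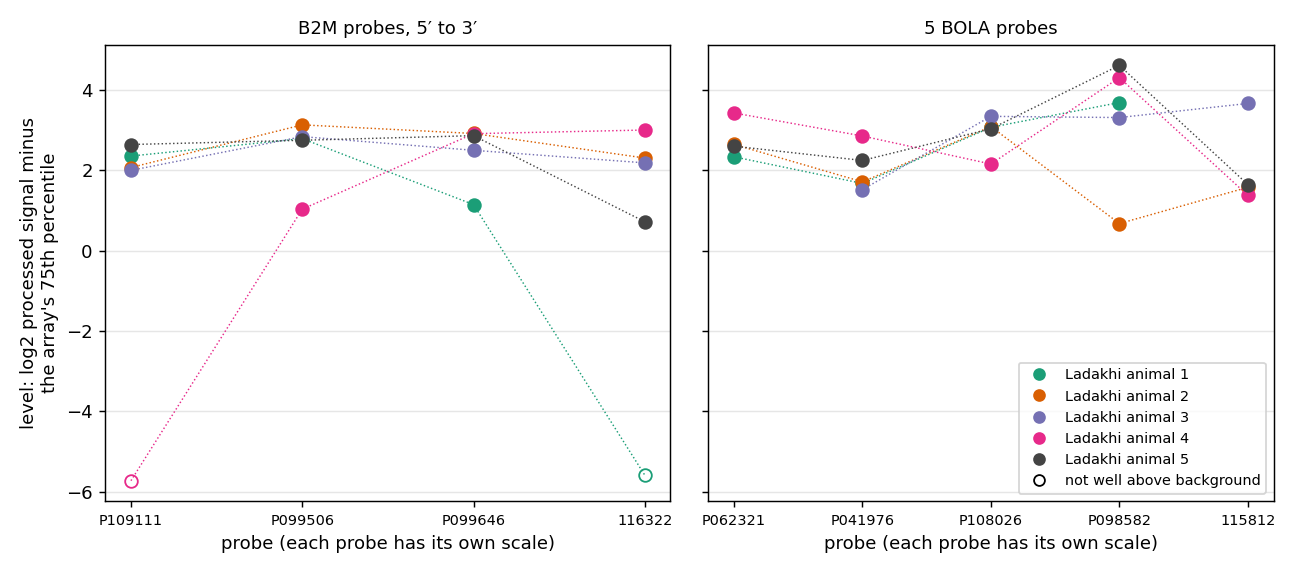
Levels of the 5 Ladakhi animals on the 4 B2M probes (left, in order along the transcript) and on 5 BOLA probes (right), in log2 units, with open points not well above background. The dotted lines only link the points of an animal. Animal 4 is low on the first 2 B2M probes and animal 1 on the last 2, and animal 4 is the lowest on BOLA A_73_P108026 but the highest on A_73_P041976.

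The fifth B2M probe, A_73_P167762, is the exact reverse complement of A_73_P109111 over all 60 bases, and it was well above background on 0 of 11 arrays, so it was not tested. The stretch below is the first 30 bases of the sense probe and the same 30 on the other strand, with the same 10 base pairs in capitals.
B2M A_73_P109111: ctgtttccctgctctttaatACTGATATGC
B2M A_73_P167762: GCATATCAGTattaaagagcagggaaacag

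TAP1 and TAP2 form the pump that carries peptides into the endoplasmic reticulum. Their probes lie with those of PSMB8 and PSMB9 in one stretch at chr23:7345518-7399969 in the file coordinates. TAP2, on A_73_P051136, had Ladakhi levels of -1.45, -0.97, -0.52, -0.28 and -0.47 and Sahiwal levels from -1.91 over -1.21 to -0.70. Ladakhi averaged -0.74 ± 0.47 (SD, n = 5) and Sahiwal -1.29 ± 0.43 (SD, n = 6). The difference of 0.55 (interval -0.10 to 1.21) was not called (adjusted p = 0.162), and the ranges overlapped.

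TAP1 was detected on all 6 Sahiwal arrays by its 3 probes, and on 1, 0 and 0 Ladakhi arrays. The Sahiwal means were -4.18 ± 0.46 on A_73_P035801, -5.44 ± 0.42 on A_73_P337561 and -5.52 ± 0.31 on A_73_P390156 (SD, n = 6). The last 2 means lie below the lowest detected level of every Ladakhi array (-4.45 at its lowest), and the first lies below their average, -3.78. A level like that in Sahiwal would not have been detectable on the Ladakhi arrays with the last 2 probes, and no fold is given. The fitted differences (-0.24, -0.27 and -0.28) turned to 0.88, 1.53 and 1.26 under normexp background correction.

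Tapasin (TAPBP), which holds the empty heavy chain next to the transporter, was detected in Sahiwal only, so the size of its difference is not settled. Its probe, A_73_120583 at chr23:7767636-7767695, was well above background on 0 Ladakhi arrays, with processed signals of 21.2 to 63.8, and on all 6 Sahiwal arrays, with 533 to 1381. The Sahiwal levels ran from -3.74 over -3.47 to -3.11 and no Ladakhi value reached them. The mean Sahiwal TAPBP level was 1.26-fold above the mean of the 5 Ladakhi detection limits, each the lowest level well above background on its array. This is not a strict bound, because a spot not well above background can lie above the limit of its array. On Ladakhi array 1, PSMB9 A_73_P461891 was at -3.30 and not well above background, against a limit of -3.44. The limits differ between arrays, and that of Ladakhi animal 2 (-3.03) lies above every Sahiwal level. The limma fit takes the Ladakhi background signals as values (adjusted p = 0.000647) and does not test the 1.26-fold gap. Ladakhi averaged -5.04 ± 0.42 (SD, n = 5) and Sahiwal -3.45 ± 0.23 (SD, n = 6). The call was lost under normexp (difference -0.18, adjusted p = 0.494) and with background signals raised to that lowest level (-0.33, adjusted p = 0.346).

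PSMB8, PSMB9 and PSMB10 replace the catalytic subunits of the standard proteasome to form the immunoproteasome. PSMB8 was not called on any of 3 probes. On A_73_107343, the Ladakhi levels were 0.43, -0.68, 0.29, 0.88 and 0.44, with animal 2 lowest, and the Sahiwal levels lay close together, from -0.54 over -0.27 to -0.21. The difference was 0.60 (interval -0.02 to 1.22, adjusted p = 0.112), and 0.83 (adjusted p = 0.0208) without Ladakhi animal 2. On A_73_P110796, Ladakhi had -2.49, -2.42, -2.41, -1.45 and -2.24 and Sahiwal -2.14 over -1.81 to -1.24. There the difference was -0.45 (interval -1.04 to 0.15, adjusted p = 0.213), on the other side of 0 from the first probe. The third, A_73_P047776, was detected on 3 Ladakhi arrays and differed by 0.01 (adjusted p = 0.989).

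PSMB9 gave the smallest Ladakhi SD of the 30 tested probes. On that probe, A_73_P294026, the Ladakhi levels were 1.83, 1.39, 1.45, 1.44 and 1.89 (mean 1.60 ± 0.24, SD, n = 5) and the Sahiwal levels ran from 1.17 over 1.74 to 1.81 (mean 1.59 ± 0.28, SD, n = 6). The difference was 0.01 with a 95% confidence interval from -0.53 to 0.56 (adjusted p = 0.969). A_73_118729, which shares 50 of its 60 bases with it, differed by -0.41 (interval -1.02 to 0.20, adjusted p = 0.265). A_73_P461891, further 5′, was detected on 1 Ladakhi array and on all Sahiwal arrays. Its difference of -0.81 missed the threshold (adjusted p = 0.0535) and passed it without Ladakhi animal 3 (-1.04, adjusted p = 0.0132). The fourth probe, A_73_P511858, was detected on 0 Ladakhi and 1 Sahiwal arrays and was not tested.

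PSMB10 lies at chr18:34441558-34441728 in the file coordinates, and its 1 probe, A_73_P051686, is shown because it was called: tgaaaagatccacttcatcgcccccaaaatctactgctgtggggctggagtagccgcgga. Only Ladakhi animal 3 was well above background, at -3.62, and the other 4 had background signals at -5.59, -3.84, -5.73 and -6.01. The Sahiwal levels ran from -3.27 over -3.01 to -2.86, all above the Ladakhi ones. The difference was -1.92 (SE 0.43, adjusted p = 0.0032) with the background signals kept. It was -0.60 (adjusted p = 0.0732) with them raised to the lowest detectable level, and -0.40 (adjusted p = 0.108) under normexp.

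**Figure D4:**
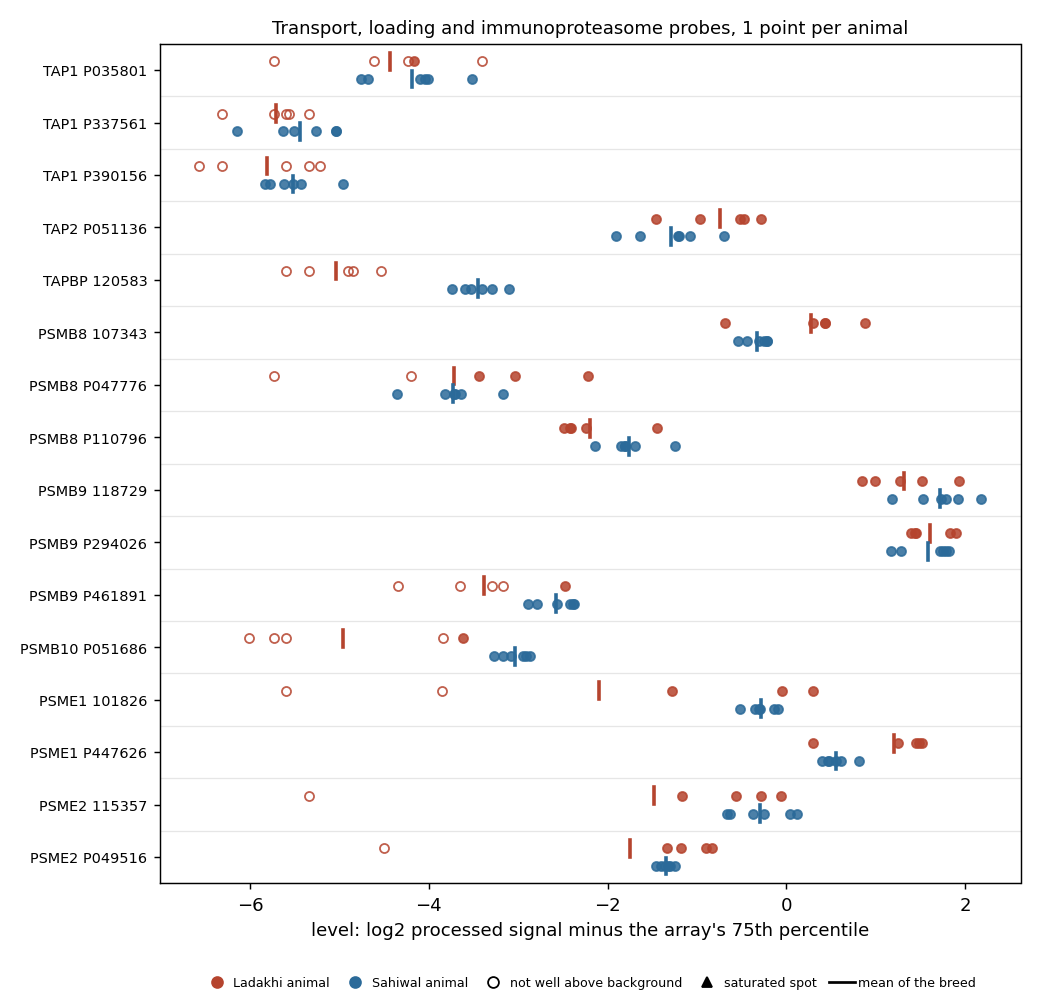
Levels (log2 processed signal minus the array's 75th percentile) of the 16 tested TAP1, TAP2, TAPBP, PSMB8, PSMB9, PSMB10, PSME1 and PSME2 probes, with 1 point per animal and bars at the breed means, coloured as in the plot of BOLA and B2M. Open points are not well above background. On TAPBP all 5 Ladakhi points are open, and on PSMB9 A_73_P294026 the ranges of the breeds overlap widely.

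PSME1 and PSME2 are the alpha and beta subunits of the ring that caps the proteasome and opens it. PSME1 was at 0.30, 1.24, 1.45, 1.52 and 1.49 in Ladakhi on A_73_P447626, and from 0.40 over 0.51 to 0.81 in Sahiwal. Ladakhi animals 2 to 5 were above every Sahiwal animal and animal 1 was below. Ladakhi averaged 1.20 ± 0.51 (SD, n = 5) and Sahiwal 0.55 ± 0.15 (SD, n = 6). This difference, 0.65 (interval 0.05 to 1.24), missed the threshold (adjusted p = 0.0753) and passed it without Ladakhi animal 1 (0.87, adjusted p = 0.0169).

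The other PSME1 probe, A_73_101826, also has a split match, at chr10:21292296-21292518. It had Ladakhi levels of -5.59, -3.85, 0.30, -0.05 and -1.28, the first 2 not well above background, and Sahiwal levels from -0.52 over -0.30 to -0.09. Its difference of -1.81 (adjusted p = 0.0975) became -0.06 (adjusted p = 0.903) with those 2 left out. With all animals kept, the 2 PSME1 probes had opposite signs.

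PSME2 was not called on either probe. On A_73_P049516, the Ladakhi levels were -0.90, -1.18, -1.34, -4.50 and -0.83, animal 4 not being well above background, and the 6 Sahiwal levels lay between -1.46 and -1.24. The difference of -0.40 (adjusted p = 0.575) turned to 0.29 (adjusted p = 0.373) without animal 4. On A_73_115357, only animal 2 was at background, at -5.34, and the difference of -1.19 (adjusted p = 0.212) was -0.23 (adjusted p = 0.581) without it.

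The spread between animals was wider in Ladakhi on 18 of the 20 measured class I probes. The median SD over these probes was 0.69 in Ladakhi and 0.33 in Sahiwal, against 0.55 and 0.38 over all measured probes. Of the 20 probes, 9 had saturated Sahiwal spots and 5 had a Ladakhi spot at background, and the part of these spots in the spread was not tested. Among the 21 tested probes with no saturated spot, Sahiwal animal 6 was the highest of its breed on 8, from 5 genes, and the lowest on 0. Sahiwal animals 3 and 4 were each the lowest on 6, and the highest on 4 and 1. Some of these probes overlap in sequence. The same counts over all probes were not made, so these do not set the class I genes apart.

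As a description of likeness, deviations from the breed means over the 11 arrays were correlated with 2352 other probes that were detected on all arrays and nowhere saturated. For 13 class I probes with a value on each array, the most alike gene had a Pearson r between 0.816 and 0.956. For TAP2 it was CACYBP (r = 0.937), for PSME1 A_73_P447626 SEC61B (0.942), for PSMB8 A_73_107343 POP7 (0.935) and for PSMB9 A_73_P294026 NDUFA7 (0.845). For B2M A_73_P099646 it was CAPN2 (0.938), and for BOLA A_73_P109228 STIM1 (0.818), which was also among the most alike for that B2M probe. All these points share the arrays' scaling, and with 2352 candidates the highest r over 11 arrays is high by selection.

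Among the other genes of the class I route, the 45 listed genes on the array had 84 tested and 35 measured probes, from 21 genes. Of the 35, 5 were higher and 5 lower in Ladakhi, near the 18.2% and 14.6% of all measured probes, with a median difference of -0.06. Regulators were mixed. IRF1, a transcription activator induced by interferon, was lower (-1.35, SE 0.34, adjusted p = 0.00693), and IRF2, which counters IRF1 at the same sites, was higher (2.28, SE 0.45, adjusted p = 0.00147), though their ranges overlapped between breeds. A second IRF1 probe, A_73_P102536, was well above background on 0 Ladakhi arrays and had a fitted difference of 1.28 (adjusted p = 0.0377). The mean of both IRF1 probes differed by -0.04 (adjusted p = 0.946). The interferon gamma receptor chain IFNGR2 was lower on A_73_P355846 (-1.42, adjusted p = 0.00824), but was at -0.22 and 0.16, not called, on its other 2 measured probes. The kinase JAK1 was higher on A_73_P104271 (0.92, adjusted p = 0.0125) and A_73_P093241 (0.82, adjusted p = 0.0234), and was at 0.66 and -1.13, not called, on 2 others.

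POMP, the assembly factor of new proteasomes, was higher by 2.02-fold (adjusted p = 0.0121). Ladakhi averaged 0.28 ± 0.39 (SD, n = 5) and Sahiwal -0.73 ± 0.38 (SD, n = 6), and the ranges did not overlap. The standard subunits PSMB6 and PSMB7 were at 0.61 (adjusted p = 0.115) and 0.28 (adjusted p = 0.458), neither called on these measured probes. PSMB5 (-1.62, adjusted p = 0.00345) and a second PSMB7 probe, A_73_P051481 (-1.52, adjusted p = 0.00638), were called lower, each well above background on 1 Ladakhi array. The trimming enzymes ERAP1 and ERAP2 were at 0.00 and 0.51, not called. The chaperone calreticulin (CALR) was lower on A_73_P285466 (-2.73, adjusted p = 0.000471) and higher on A_73_P043756 (1.32, adjusted p = 0.00619). Its other 2 measured probes were at -0.06 and -0.10, so its probes did not agree.

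Relatives of the heavy chain had 2 of 10 measured probes lower and 0 higher, with a median difference of -0.78. This count is near the 14.6% of all measured probes called lower. The probes BOLA-NC1 A_73_P109236, BOLA-A A_73_P062286 and JSP.1 A_73_P296616 had saturated spots on 3, 2 and 5 arrays. BOLA-NC1, a class I gene of the non-classical group, was lower on A_73_P109161 (-0.91, SE 0.26, adjusted p = 0.0138) and was at -0.52 (adjusted p = 0.292) on A_73_P109236. FCGRT, the heavy chain of the neonatal Fc receptor, which also pairs with B2M, was lower on A_73_120112 (-1.32, adjusted p = 0.00157) and at 0.46, not called, on A_73_P251501. CD8A, the chain of the T cell co-receptor that binds class I, was at -0.03 (adjusted p = 0.965).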

How the data were processed

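Blood cell RNA was amplified from a T7 primer and labelled with Cy3, per the labels' protocols. The deposited intensity values are processed signals of Feature Extraction, version 12.0.1.1 for Ladakhi and 9.5.3.1 for Sahiwal, per the file headers. The authors also deposited a log2 table. Its values matched log2 minus the 75th percentile over all probes, centred on each probe's median (correlation at least 0.9999), and each column matched an array of the same breed other than the one it names. Medians of its columns were 1.60 to 2.31 (Ladakhi) and -0.73 to 0.00 (Sahiwal). Animal numbers here are those of the scanner files and are unsettled.

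After control spots were dropped, the 294 spots carrying an outlier mark were treated as missing and replicate spots were averaged. Levels were fitted with limma 3.58.1 (R 4.3.3; lmFit, eBayes), with a threshold of 0.05 after Benjamini-Hochberg adjustment. Saturated spots were kept. For a probe at background in all Ladakhi animals, any fold given is against the Ladakhi detection limits and is not a strict bound. The fit was tested on simulated data over 17866 probes: 0 of 50 differences of 0.5, 1 of 50 of 1, 35 of 50 of 2 and 50 of 50 of 4 (log2) were called, with 6 false calls among 17666. The simulation changed far fewer probes than the 41.8% called in the data. It also gave both breeds the same spread, with no background floor and no saturation. Its rates are therefore not those of the tests here. Members and lists were chosen with earlier results of these data known. Named pathway probes are those called and measured in both breeds, up to 10 by size, and the other probes of those genes and of a few listed ones were named after their values were seen. The number of arrays limits the precision. Gene names are those of the array design. Scalings, background correction, filters, spot handling, blocks, weights and left-out animals were varied.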

Additional observations from a re-analysis of the deposited data

Results flagged for a closer look

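In 10 of 60 sets of levels (30 probes in 2 breeds), 1 animal stood apart from the others of its breed by Dixon's test at the 95% level, all 10 in Ladakhi and 0 in Sahiwal. Chance gives about 1 in 20 such sets, and the sets share arrays. Of the 10 spots, 4 were not well above background: B2M A_73_116322 in animal 1 (-5.59, the nearest other at 0.72), B2M A_73_P109111 in animal 4 (-5.73, nearest 1.99), PSME2 A_73_115357 in animal 2 (-5.34, nearest -1.16) and PSME2 A_73_P049516 in animal 4 (-4.50, nearest -1.34). Other low values were BOLA A_73_P108026 in animal 4 (2.15, nearest 3.03), B2M A_73_P099506 in animal 4 (1.03, nearest 2.74), B2M A_73_P099646 in animal 1 (1.14, nearest 2.49) and PSME1 A_73_P447626 in animal 1 (0.30, nearest 1.24). High values were BOLA A_73_115812 in animal 3 (3.66, nearest 1.64) and PSMB8 A_73_P110796 in animal 4 (-1.45, nearest -2.24).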

How the results depend on the processing

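Main counts were 6 class I probes lower and 0 higher. Lower calls came to 2 on probes detected on all arrays, to 3 with background signals left out (an alternative chosen after seeing the data) and to 3 with probes averaged per gene, each of which changes what is tested. Higher calls came to 1 under quantile normalization, 4 under normexp, 4 with no filter, 1 on probes detected on all arrays, 2 with background signals raised, 1 with them left out and 2 with the slide as a random block. Leaving out 1 animal gave 5 to 8 lower and 0 to 2 higher. For the other pathway probes (10 lower, 14 higher), lower calls came to 30 under quantile, 16 under cyclic loess, 6 on probes detected on all arrays, 6 with background signals left out and 3 per gene. Higher calls came to 8, 7, 47 (normexp), 48 (no filter), 4, 43 (raised), 9 and 4 per gene. Over all tested probes (3098 lower, 4378 higher), lower calls were 7230 under quantile, 1678 under normexp, 387 on probes detected on all arrays, 1595 raised and 905 left out. Higher calls were 1223 under quantile, 1109 under loess, 11058 under normexp, 30787 with no filter, 713, 10437 raised and 1424 left out. The cause of these moves was not tested.

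Differences turned sign under normexp for BOLA A_73_P041976 (-0.070), BOLA A_73_P062321 (-0.086), B2M A_73_P099646 (-0.17), TAP1 A_73_P035801 (0.88), A_73_P337561 (1.53) and A_73_P390156 (1.26) and PSMB9 A_73_P294026 (-0.44). With background signals raised, the 3 TAP1 probes were at 0.48, 1.66 and 1.75. Under quantile, BOLA A_73_P062321 was at -0.038, BOLA A_73_P098582 at -0.59, B2M A_73_P099646 at -0.12 and PSMB8 A_73_P047776 at -0.41, the last also at -0.033 under loess. With the percentile over all probes, PSMB8 A_73_P047776 was at -0.0069 and PSMB9 A_73_P294026 at -0.0030, and the former at -0.0020 in the authors' table. B2M A_73_P099506 was at 0.021 with outlier marks kept and 0.00063 with array weights, and PSME2 A_73_P049516 at 0.29 with background signals left out. Left-out animals gave B2M A_73_P099506 -0.16 to 0.36, TAP1 A_73_P035801 -0.50 to 0.080, PSMB8 A_73_P047776 -0.37 to 0.51, PSMB9 A_73_P294026 -0.070 to 0.066 and PSME2 A_73_P049516 -0.63 to 0.29. These settings moved the median of measured probes by 0.17 (quantile), 0.41 (loess) and 0.27 (normexp), and values under them are relative to that shift.

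With the animal number as a replicate block, 5 class I probes were lower and 0 higher, BOLA A_73_P039316 losing its call (-0.87, adjusted p = 0.0755). Same-numbered animals did not deviate together (correlations -0.07 to 0.05). Because the animal numbers are unsettled, this cannot show whether animals of the breeds were paired.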
